A study of Mus musculus with 8 samples.

Results

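The 10 genes described here are 9 immediate early genes (Fos, Fosb, Fosl1, Jun, Junb, Egr1, Klf4, Ier3 and Dusp1) and Myc, taken by their Ensembl identifiers from an expression table of 17592 mouse genes. All 10 of 10 were measured. The table comes from cultured mesenchymal stem cells, the plastic-adherent stromal cells that can form bone, fat and cartilage cells. They were grown from bone marrow of mice whose strain is given as C57B6/J and had reached passage 10. The treated group was 4 samples of cells kept for 24 h with ropivacaine, a local anaesthetic of the amide type that blocks voltage-gated sodium channels. It was set against 4 untreated control samples, also collected at 24 h. The sample annotation gives the dose as 100 uM and the protocol text as 100 mM. The micromolar value is used here. No gene was deleted, silenced or introduced in either group.

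Immediate early genes are the ones a cell can switch on without making new protein first, because the factors that drive them, such as SRF with its ETS partners and CREB, are already present and are activated by kinases. Growth factors, serum, stress and membrane depolarisation with calcium entry are classic inducers. The transcripts typically climb within minutes and decay within hours, since many of the mRNAs are short-lived and since products such as the phosphatase Dusp1 switch the kinases off again. In stromal cells the AP-1 factors built from FOS and JUN proteins act on genes of growth, matrix turnover and bone formation, and Myc drives genes of growth and biosynthesis.

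At 24 h the group means of the immediate early genes and Myc lay within 0.13 of each other on the log2 scale, with Fos the farthest apart. With ropivacaine, 0 of the 10 genes rose and 0 fell (limma, Benjamini-Hochberg adjusted p below 0.05 over all genes). Of all genes measured, 71 passed this test, or 0.404%, with 0.284% higher and 0.119% lower. With 7 arrays instead of 8 the count was 15 to 31, and it was 3 with the replicate number as a block. The smallest adjusted p among the 10 was 0.512, for Fos. Without adjustment, 1 of the 10 genes, Fos, had a p below 0.05, against 9.74% of all genes (5.34% higher and 4.41% lower), which is about the same share. The p of Fos was at or above 0.05 in 10 of 17 alternative fits, and that of Fosl1 was below 0.05 in 7 of 18. In 0 of the 10 genes did the 4 ropivacaine arrays lie wholly above or wholly below the 4 control arrays, while 6.7% of all genes showed such a separation. The differences pointed up in 4 genes and down in 6, with a median of -0.023 on the log2 scale. Over all genes the median difference was -0.0047, and 47.7% of genes were positive.

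The 95% intervals limit the differences in array signal among these samples. The 95% interval of the log2 difference lay within 0.25 of zero for 7 of the 10 genes and within 0.5 for 9 of them. Over the whole table this held for 11402 and 16181 of the 17592 genes. Junb was the gene whose interval reached beyond 0.5. The 71 genes that passed the test with all arrays differed by between 0.22 and 0.94 on the log2 scale, so a change as large as their median of 0.36 lay outside the intervals of the other 9 genes.

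**Figure D1:**
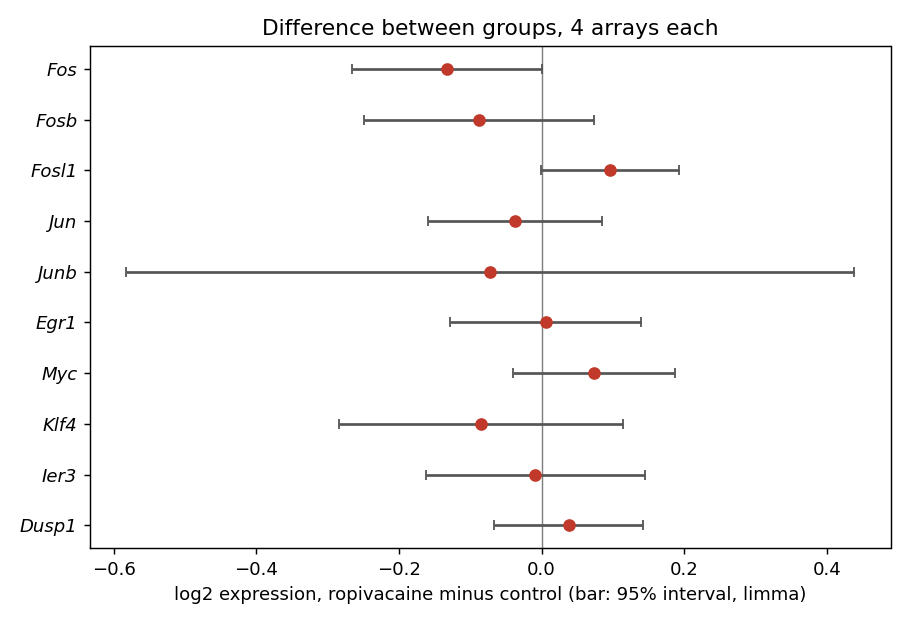
Difference in log2 expression between ropivacaine-treated and untreated cells for the 10 genes, with points for the difference of the group means (4 arrays each) and bars for the 95% interval from limma. Fos and Fosl1 lie farthest from zero on opposite sides relative to their intervals, and the interval of Junb, from -0.58 to 0.44, is the widest of the 10.

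All values are log2 expression summarised per gene by RMA, and the lower quartile, median and upper quartile of the 8 arrays lay at 5.73, 6.91 and 8.42. Myc, Egr1, Ier3 and Dusp1 lay above the upper quartile. Fos, Fosb and Junb lay between the lower quartile and the median, and their distance from background is unknown because no detection calls were used. The array with the lowest estimated weight was control replicate 2, at 0.58, followed by ropivacaine replicate 3 at 0.708, so values without them are given where they matter. Whether the 4 samples of a group were separate cultures or animals is not stated, so the p-values cover the differences among these particular samples, possibly technical ones. No scan date was used, so a batch that followed the groups cannot be told apart from the treatment. The rows carry no symbols, so the stromal, macrophage, endothelial and epithelial marker lists could not be matched and the cell type given in the labels was not checked here.

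CREB, one of the factors that calcium and cAMP signals activate, binds the element TGACGTCA and its half-site TGACG. RefSeq promoter sequences (build GRCm38.p6) were at hand for 7 of the 10 genes, namely Fos, Fosb, Jun, Junb, Klf4, Ier3 and Dusp1. The 250 bases before the transcription start are printed for 4 of them, the FOS pair with the lower ropivacaine means, Junb with the widest spread between arrays, and Dusp1, which holds a complete CREB element. The Fosb window overlaps the annotated gene, which reaches base 19310118, so its positions count from a start inside that gene. Capitals mark the half-site TGACG, the full element TGACGTCA, the E-box CACGTG and the TATA box TATAAA, each searched on both strands.
Fos, chr12:85473640-85473889, plus strand: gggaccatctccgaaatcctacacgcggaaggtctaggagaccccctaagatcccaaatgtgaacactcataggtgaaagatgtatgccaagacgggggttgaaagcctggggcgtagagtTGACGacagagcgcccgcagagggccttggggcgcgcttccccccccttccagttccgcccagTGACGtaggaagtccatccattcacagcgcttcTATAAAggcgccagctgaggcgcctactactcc
Fosb, chr7:19310046-19310295, minus strand: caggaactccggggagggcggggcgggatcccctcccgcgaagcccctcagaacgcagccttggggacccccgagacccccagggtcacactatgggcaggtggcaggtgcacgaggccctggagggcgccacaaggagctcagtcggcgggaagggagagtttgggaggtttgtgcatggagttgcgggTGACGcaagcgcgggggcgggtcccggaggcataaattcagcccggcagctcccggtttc
Junb, chr8:84978749-84978998, minus strand: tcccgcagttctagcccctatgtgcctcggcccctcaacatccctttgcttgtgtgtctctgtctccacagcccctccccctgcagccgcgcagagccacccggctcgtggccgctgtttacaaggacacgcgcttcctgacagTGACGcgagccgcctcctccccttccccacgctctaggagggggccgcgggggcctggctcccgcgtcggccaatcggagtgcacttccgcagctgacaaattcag
Dusp1, chr17:26508473-26508722, minus strand: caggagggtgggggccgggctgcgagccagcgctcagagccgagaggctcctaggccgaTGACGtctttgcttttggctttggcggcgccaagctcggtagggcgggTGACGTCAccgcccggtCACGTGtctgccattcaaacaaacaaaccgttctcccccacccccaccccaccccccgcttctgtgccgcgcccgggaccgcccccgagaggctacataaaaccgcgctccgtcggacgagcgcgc

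The half-site TGACG was found in 5 of the 7 promoters (Fos, Fosb, Junb, Klf4 and Dusp1), against 17.8% of 32851 promoter windows of the same length in the RefSeq table. The GC box GGGCGG was found in 6 of the 7 (all except Junb) and in 32.7% of all windows, the NF-kB site in 3 (Fos, Fosb and Ier3) and in 7.25%, and the E-box CACGTG in 2 (Klf4 and Dusp1) and in 6.02%. Fos carries the half-site TGACG at -129 and -66 from the start, upstream of a TATA box at -33. Junb carries the half-site at -106 and Fosb at -60. Dusp1 has the half-site at -191 and again inside the full element TGACGTCA at -143, a motif in 1.55% of all windows, followed by an E-box at -126. The AP-1 site TGANTCA was found in 0 of the 7 windows and in 6.75% of all windows, and the SRF-binding CArG box in 0 of the 7 and in 1.47% of all. Sites more than 250 bases upstream and other spellings or lengths of these motifs were not searched. Egr1, Fosl1 and Myc had no promoter to search. The counts of 0 therefore do not show that these genes lack such sites. These matches describe letters in short windows and say nothing of which factor was bound in these cells.

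Among the FOS subunits of AP-1, Fos and Fosb had lower means with ropivacaine and Fosl1 a higher one, and none of them passed the test. Fos (ENSMUSG00000021250) encodes the founding FOS protein, which must pair with a JUN protein to bind DNA. Its log2 expression on ropivacaine replicates 1 to 4 was 6.493, 6.604, 6.610 and 6.429, against 6.557, 6.722, 6.673 and 6.716 on control replicates 1 to 4. Of the ropivacaine arrays 2 lay below every control array, and the other 2 lay above control replicate 1. The difference of -0.13 (SE 0.06, 95% interval -0.27 to -0.0001) had an unadjusted p of 0.0498 and a limma adjusted p of 0.512. The difference ranged from -0.17 to -0.10 when any single array was left out.

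Fosb (ENSMUSG00000003545) encodes a related FOS protein with its own transactivation domain. It read 6.642, 6.613, 6.833 and 6.848 on the ropivacaine arrays and 6.932, 6.750, 6.845 and 6.760 on the control arrays. Ropivacaine replicates 1 and 2 lay below all controls, while replicates 3 and 4 lay among them. The difference was -0.09 (95% interval -0.25 to 0.07, limma adjusted p = 0.764). With single arrays left out it ranged from -0.126 (without ropivacaine replicate 4) to -0.047 (without ropivacaine replicate 2). It was -0.057 without ropivacaine replicate 1, -0.051 without control replicate 1 and -0.121 without ropivacaine replicate 3.

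Fosl1 (ENSMUSG00000024912) encodes FRA-1, a FOS protein that lacks the strong transactivation domain of FOS, and in other settings accumulates late, when FOS itself has gone. Here it read 8.245, 8.183, 8.258 and 8.175 on the ropivacaine arrays, against 8.085, 8.186, 8.069 and 8.136 on the control arrays. The groups were kept from separating by a single control array, replicate 2, which sat just above the 2 lower ropivacaine arrays. Mean expression was 8.22 ± 0.04 with ropivacaine and 8.12 ± 0.05 in control cells (SD, n = 4 each). The difference of 0.10 (SE 0.04, 95% interval -0.0004 to 0.19) had an unadjusted p of 0.0508 and a limma adjusted p of 0.514. Without control replicate 2 and ropivacaine replicate 3 it was 0.10 (limma adjusted p = 0.527).

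**Figure D2:**
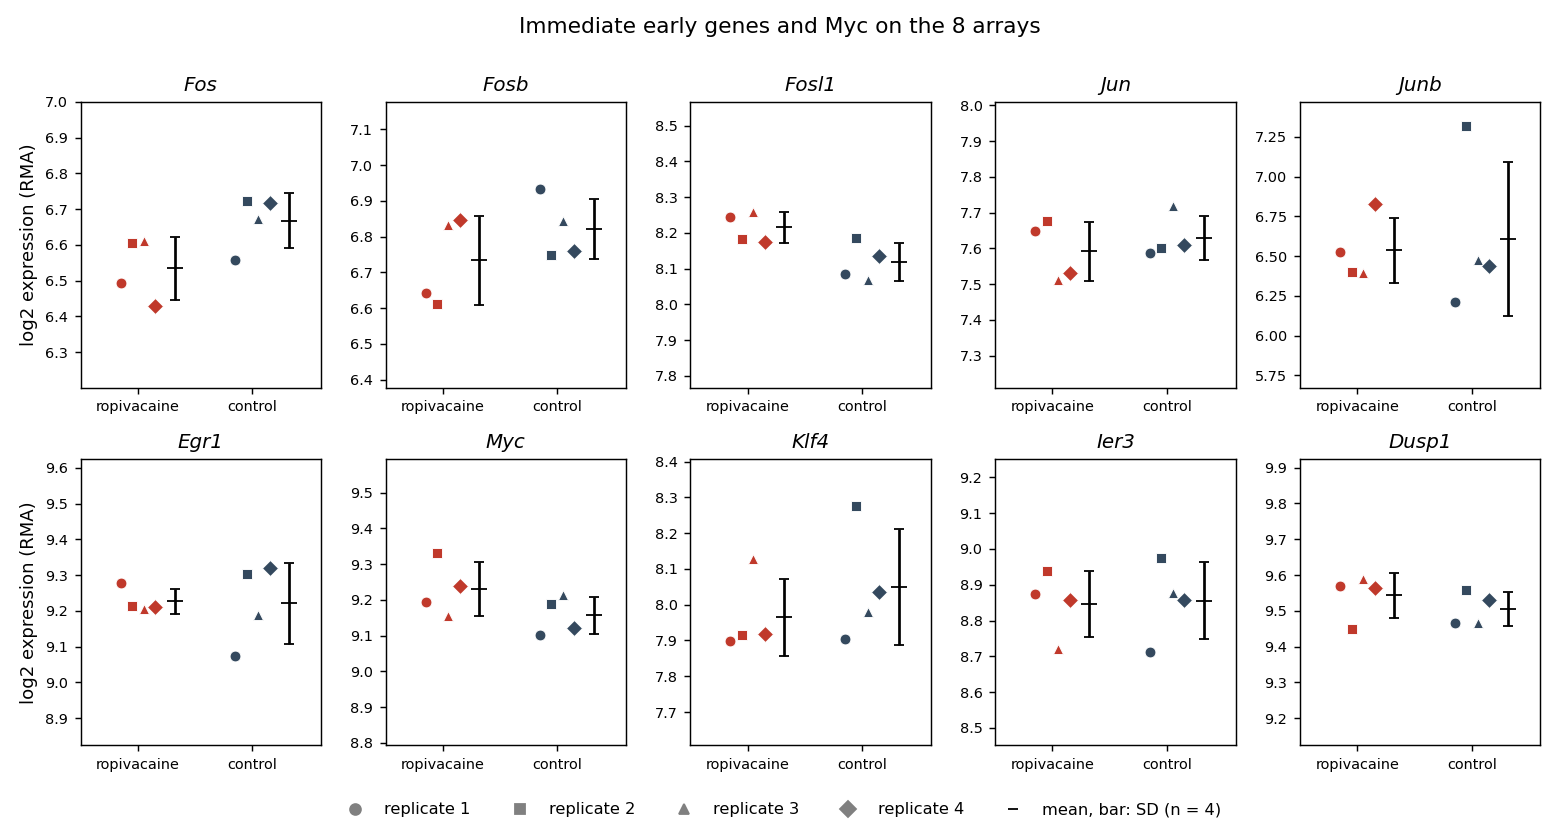
Log2 expression (RMA) of each gene on the 8 arrays, ropivacaine left and control right, with marker shapes for the replicate number and a black bar for the mean ± SD (n = 4). Each axis spans 0.8 log2 units except that of Junb, which spans 1.8, and the groups overlap in all 10 panels, with control replicate 2 of Junb far above the others at 7.316.

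The JUN subunits showed smaller differences against their spread. Jun (ENSMUSG00000052684), whose protein can bind DNA as a pair with itself or with a FOS protein, read 7.648, 7.678, 7.512 and 7.531 with ropivacaine and 7.587, 7.60, 7.720 and 7.610 in control cells. Of the ropivacaine arrays 2 lay below every control array and the other 2 lay among the controls. The difference was -0.04 (95% interval -0.16 to 0.09, limma adjusted p = 0.882). The size hung on single arrays: it was -0.01 without ropivacaine replicate 3, -0.017 without ropivacaine replicate 4, -0.0067 without control replicate 3 and -0.066 without ropivacaine replicate 2.

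Junb (ENSMUSG00000052837) encodes a JUN protein that often opposes JUN in the control of growth. It was the most variable of the 10 genes. Its values were 6.523, 6.403, 6.391 and 6.829 on the ropivacaine arrays, against 6.209, 7.316, 6.474 and 6.435 on the control arrays. Control replicate 2 stood 0.84 above the next control array, and replicate 1 gave the lowest value of all 8. The group means were 6.54 ± 0.20 with ropivacaine and 6.61 ± 0.49 in control cells (SD, n = 4 each). The difference of -0.07 (95% interval -0.58 to 0.44, limma adjusted p = 0.953) rested on control replicate 2. Without that array it was 0.16 (limma adjusted p = 0.784), and without both control replicate 2 and ropivacaine replicate 3 it was 0.21 (limma adjusted p = 0.639), so no direction can be given for Junb.

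Because AP-1 is a pair of subunits, the differences between subunits within each array were also compared, a test chosen after the values were seen. Of the 10 pairs of subunits, which share genes, 1 separated the groups. The share of all gene pairs that separate was not computed, so this count has no yardstick. The pair joins Fos and Fosl1, the genes with the smallest unadjusted limma p (0.0498 and 0.0508) and opposite signs. Its separation is therefore not independent of those differences. Fos minus Fosl1 was -1.68 ± 0.08 with ropivacaine and -1.45 ± 0.06 in control cells on the log2 scale (SD, n = 4 each), a shift of -0.23. All 4 ropivacaine arrays lay below all 4 control arrays (exact permutation test, two-sided, p = 0.0286, the smallest that 70 relabellings allow, and 0.286 after Benjamini-Hochberg adjustment over the 10 pairs). A lone pair could thus not pass 0.05 after adjustment, however clear its shift. Fosb minus Fosl1 shifted in the same direction by -0.18, with groups that overlapped (exact permutation p = 0.143, adjusted 0.429). Only the shift of such a difference between groups can be read, since the levels of different genes on an array are not comparable.

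Of the zinc finger factors, Egr1 showed a group difference near zero. Egr1 (ENSMUSG00000038418) binds GC-rich sites and is among the quickest responders to growth factors and calcium entry. It read 9.278, 9.215, 9.204 and 9.211 with ropivacaine and 9.075, 9.302, 9.189 and 9.320 in control cells. The ropivacaine arrays were tightly grouped inside the range of the controls, with an SD of 0.03 against 0.11. The difference was 0.0055 (95% interval -0.13 to 0.14, limma adjusted p = 0.989), and its sign turned when control replicate 1, control replicate 3 or ropivacaine replicate 1 was left out.

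Klf4 (ENSMUSG00000003032), a Krüppel-like factor linked to growth arrest and to pluripotency, read 7.899, 7.915, 8.127 and 7.917 on the ropivacaine arrays and 7.904, 8.277, 7.981 and 8.036 on the control arrays. In each group 1 array stood above the rest, ropivacaine replicate 3 and control replicate 2, and the other 3 ropivacaine arrays lay close to the lowest control. The difference was -0.09 (95% interval -0.28 to 0.11, limma adjusted p = 0.821). Without control replicate 2 it was -0.01 (limma adjusted p = 0.989). Without both control replicate 2 and ropivacaine replicate 3 it was -0.06 (limma adjusted p = 0.728).

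Myc (ENSMUSG00000022346), a basic helix-loop-helix factor that pairs with MAX on E-boxes, had a slightly higher mean with ropivacaine that did not pass the test. It read 9.194, 9.332, 9.154 and 9.240 on the ropivacaine arrays and 9.103, 9.188, 9.213 and 9.122 on the control arrays. Of the ropivacaine arrays 2 lay above every control and the other 2 lay among them. The difference was 0.07 (SE 0.05, 95% interval -0.04 to 0.19, limma adjusted p = 0.703), and it ranged from 0.04 to 0.10 when single arrays were left out.

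Ier3 and Dusp1 act on the kinase pathways that switch these genes on. Ier3 (ENSMUSG00000003541) encodes a small protein induced by growth factors and NF-kB that affects survival and ERK signalling. It read 8.873, 8.938, 8.720 and 8.856 with ropivacaine and 8.712, 8.975, 8.877 and 8.858 in control cells, ranges that almost coincide. The difference was -0.0087 (95% interval -0.16 to 0.15, limma adjusted p = 0.984).

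Dusp1 (ENSMUSG00000024190) encodes a nuclear phosphatase that inactivates the p38, JNK and ERK kinases. It read 9.570, 9.449, 9.588 and 9.564 with ropivacaine, against 9.465, 9.559, 9.467 and 9.529 in control cells. Of the ropivacaine arrays 3 lay above every control array, and the remaining one, replicate 2, lay below them all. The difference was 0.04 (95% interval -0.07 to 0.14, limma adjusted p = 0.857). Without ropivacaine replicate 2 it was 0.07 (limma adjusted p = 0.722), the largest value with a single array left out. The smallest was 0.023, without ropivacaine replicate 3.

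Several of these genes varied more between arrays of a group than the groups differed from each other. The SD of Junb within groups, 0.37, was larger than that of 97.4% of all genes and of 98.3% of the 1000 genes nearest to it in mean level. Klf4 (0.14), Ier3 (0.10) and Egr1 (0.08) exceeded 86.9%, 80.7% and 72.6% of the genes nearest to them in level. Fosl1 was the steadiest of the 10, with an SD of 0.05 that exceeded 15.9% of the genes nearest in level, and Fos at 0.08 exceeded 29.6%.

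**Figure D3:**
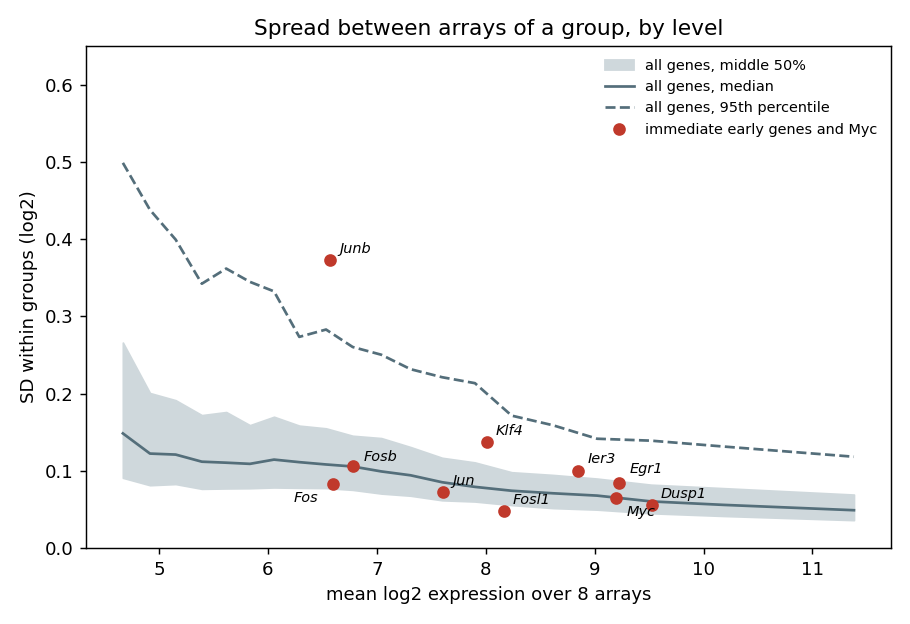
SD between arrays of a group (log2 units) against mean log2 expression over 8 arrays for the 10 genes, with the middle 50%, the median and the 95th percentile of all genes in 20 bins of equal size by level. Junb lies above the 95th percentile at its level, Klf4, Ier3 and Egr1 lie above the median, and Fosl1 lies below the middle 50%.

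The variation in control cells lay mostly along 2 arrays. Control replicate 1 gave the lowest control value in 8 of the 10 genes (all except Fosb and Fosl1), whereas it was lowest in 28.8% of all genes. Control replicate 2 gave the highest control value in 6 genes (Fos, Fosl1, Junb, Klf4, Ier3 and Dusp1), against 33.1% of all genes. Fosb ran the other way, highest in control replicate 1 and lowest in control replicate 2. Among the ropivacaine arrays, replicate 3 was at an extreme in 9 of the 10 genes, highest in 4 and lowest in 5, against 27.5% and 28.6% of all genes. The 10 genes share the same arrays, so these counts describe the arrays and are no test.

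**Figure D4:**
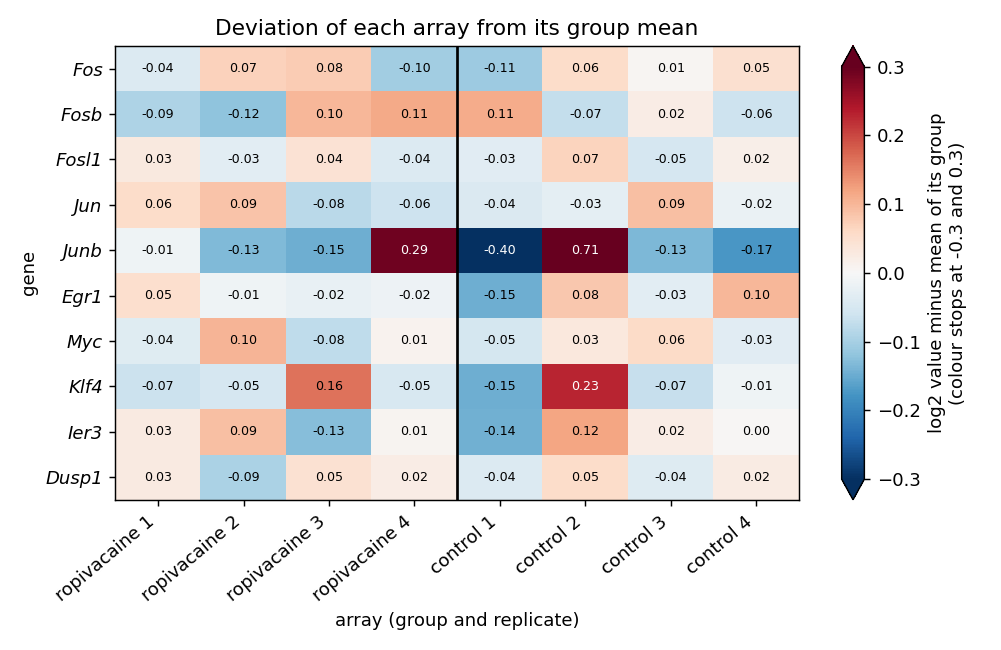
Log2 value of each gene on each array minus the mean of its group, with ropivacaine arrays left of the black line and control arrays right of it; red is above and blue below the group mean, and colour stops at -0.3 and 0.3. Control replicate 1 is blue in every gene except Fosb, and control replicate 2 is red in every gene except Fosb and Jun.

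Whether the genes moved together from array to array inside a group was tested on these deviations for all 45 pairs over the 8 arrays, with exact two-sided permutation within groups. The 576 relabellings allow no exact permutation p below 0.0017, or 0.078 for a lone pair after Benjamini-Hochberg adjustment over 45, so a single pair could not pass 0.05 however strong it was. After adjustment 0 of the 45 pairs passed, and 5 had an unadjusted p below 0.05 (4 by Spearman's rho). The correlation was positive in 29 pairs and negative in 16. The same shares over all gene pairs were not computed, so these counts have no yardstick. The pairs also share genes and arrays. The smallest unadjusted p was shared by Fosl1 with Klf4 and by Fosb with Egr1. For each pair r was also taken without the 2 arrays on which the first-named gene deviated farthest from its median. Leaving these out narrows the range of that gene, which can change r by itself. For Fosl1 and Klf4, r was 0.807 and rho 0.714 (exact permutation p = 0.0208 and 0.113, adjusted 0.328 and 0.564, n = 8). It was 0.331 for r without ropivacaine replicate 3 and control replicate 2. For Fosb and Egr1, r was -0.676 and rho -0.595 (exact permutation p = 0.0208 and 0.0486, adjusted 0.328 and 0.391, n = 8), with r at -0.571 without ropivacaine replicate 4 and control replicate 1. Fosb and Ier3 also ran opposite, with r at -0.766 and rho at -0.738 (exact permutation p = 0.026 and 0.0365, adjusted 0.328 and 0.391, n = 8), and r was -0.876 without the same 2 arrays. Myc and Ier3 ran together, with r at 0.776 and rho at 0.738 (exact permutation p = 0.0365 and 0.0538, adjusted 0.328 and 0.391, n = 8), and r was 0.859 without ropivacaine replicate 2 and control replicate 3. Fosl1 and Dusp1 gave r at 0.762 and rho at 0.786 (exact permutation p = 0.0365 and 0.0451, adjusted 0.328 and 0.391, n = 8), and r was 0.598 without ropivacaine replicate 3 and control replicate 2. Junb and Ier3 had the highest rho, 0.81, with r at 0.656 (exact permutation p = 0.0295 and 0.125, adjusted 0.391 and 0.439, n = 8), and r was 0.667 without ropivacaine replicate 4 and control replicate 2.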

How the data were processed

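Per the labels, the authors deposited log2 values in 1 table, 1 row per Ensembl gene and 1 column per array (8 Affymetrix mouse exon arrays, biotin-labelled cDNA, per the labels' protocols). Per the submitters' processing notes the authors used RMA for these log2 values. The sources used here give neither its version nor the probe sets, the annotation or any filter. Groups were taken from the sample titles. The groups were then tested by limma 3.58.1 (R 4.3.3) on all 17592 genes (no filter, no covariate, empirical Bayes defaults, two-sided), with Benjamini-Hochberg adjustment over all genes. The fit and the pair test were tested on simulated data. Exact permutation tests used scipy 1.17.1, and figures matplotlib 3.10.9. Precision is limited by the 4 arrays in each group, and 0 pairs of arrays were identical.

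All 10 genes are named, whatever their values. The genes, lists and tests were chosen with earlier results of these data known. Symbols came with the list of identifiers and could not be checked, because the RefSeq table lists no Ensembl identifiers. For that reason the lists of other AP-1, immediate early, MAPK, secreted and Myc pathway genes and of cell type markers were not applied. Promoters were matched by symbol. The alternatives were robust or intensity-trended moderation, median centring, quantile normalization, weighted arrays, filters on dim genes, a block for the replicate number, arrays left out and other thresholds.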

Additional observations from a re-analysis of the deposited data

Results flagged for a closer look

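In 2 of the 20 sets of 4 values (10 genes in 2 groups), 1 array lay apart from the other 3 by a larger part of the group's range than Dixon's test allows at the 95% level. Chance gives about 1 in 20 such sets. Klf4 on ropivacaine replicate 3 was 8.127, while the other ropivacaine arrays lay at or below 7.917, a gap of 0.921 of the range. Egr1 on ropivacaine replicate 1 was 9.278, next to 9.215 on the nearest array, a gap of 0.851 of the range. Without ropivacaine replicate 3 the Klf4 difference was -0.14 (limma adjusted p = 0.594), and without ropivacaine replicate 1 the Egr1 difference was -0.01 (limma adjusted p = 0.984).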

How the results depend on the processing

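None of the 10 genes was called under any of the 177 gene-by-alternative fits, in which the limma adjusted p ranged from 0.317 to 0.997. In 68 of these fits the log2 difference cannot move or barely does (rescaling of already matched arrays, other moderation, dim-gene filters, the balanced block). Among the other 109 the direction turned in 13, namely in 4 of 11 for Junb, 3 of 10 for Egr1, 1 of 11 for Klf4 and 5 of 11 for Ier3. With array weights the log2 difference was 0.040 for Junb and 0.0055 for Ier3. Without both arrays of lowest weight (control 2 and ropivacaine 3) it was 0.21 for Junb and 0.073 for Ier3. Without both arrays highest for Junb (control 2 and ropivacaine 4, chosen after seeing the data) it was 0.066 for Junb, 0.0067 for Klf4 and 0.028 for Ier3. With single arrays left out, the difference ranged from -0.21 to 0.16 for Junb, -0.043 to 0.038 for Egr1 and -0.057 to 0.034 for Ier3. The cause of these turns was not tested. At an unadjusted p below 0.05, 1 of the 10 genes, Fos, passed. Its unadjusted limma p was 0.0595 with an intensity trend, 0.0502 with robust moderation, 0.053 with the block and up to 0.131 with 1 array left out, while that of Fosl1 was 0.0422 with the trend. Over all genes the count of 71 became 135 with an intensity trend, 114 and 179 without the dimmest 25% and 50% of genes (where fewer were tested), 15 at an adjusted p below 0.01, 150 at 0.1, 15 to 31 with 1 array left out, 7 without both arrays of lowest weight and 4 without both arrays highest for Junb. With the replicate number as a block it was 3, and 0 of the 10 genes were called. The labels state no pairing, so the numbers were not taken as pairs. The deviations of same-numbered arrays correlated at 0.138, 0.009, 0.056 and 0.07, values that do not decide whether they were pairs. For 4 of the 8 arrays the best match among the 4 arrays of the other group was the one of its own number. The count of correlated pairs was 0 of 45 in each setting tried, which shows no stability, since the smallest adjusted exact permutation p of a lone pair is 0.078 with 8 arrays and 0.31 with 1 left out. The lists of other pathway genes were not run. Signal over background is unknown.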
